A study of Caenorhabditis elegans with 2 samples.

Results

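The genes described here encode molecular chaperones and co-chaperones of *Caenorhabditis elegans*. They are the protein-coding genes of the Ensembl WBcel235 annotation whose symbol begins with hsp-, dnj-, cct- or pfd-, which gave 65 genes of 19956 protein-coding genes with a symbol. There were 22 hsp genes, 29 dnj genes, 8 cct genes and 6 pfd genes. The hsp genes were divided into 7 constitutively expressed genes, 8 stress-induced genes (hsp-4, hsp-70 and the 6 genes of the hsp-16 group) and 7 other small heat shock genes.

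An antibody against GFP was used to precipitate chromatin of whole L4 larvae, aged 47 hours and synchronised by starvation at L1 after bleaching, of strain RW12267. In this strain CRISPR insertion at the native vab-7 locus on chromosome III gives the protein the tag TY1::EGFP::3xFLAG, and every sample carried that allele. The 2 samples are biological replicates of 1 group without a second condition, and nothing in the labels says how the cultures were separated. Whole animals pool all tissues, so the cells in which a site was occupied are not resolved, and a control experiment named in the labels was not analysed here, so whether signal at a site depends on the tagged protein was not tested.

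VAB-7 is a homeodomain transcription factor of the Even-skipped class, known for posterior patterning and for the identity of DB motor neurons. Chaperones assist the folding of other proteins. Hsp70 proteins bind exposed stretches of unfolded chains in a cycle driven by ATP, J-domain proteins (dnj genes) deliver substrates and stimulate that cycle, and Hsp110 proteins exchange the nucleotide. Prefoldin (pfd genes) hands nascent actin and tubulin to the cytosolic chaperonin TRiC, whose ring is built of the cct subunits. Small heat shock proteins hold unfolded proteins without ATP. Many inducible chaperone genes are activated by HSF-1, which binds repeated GAA units in alternating orientation (the heat shock element), while chaperones of the endoplasmic reticulum are controlled through the unfolded protein response.

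A gene was called bound when its annotated 5′ end had, no more than 1000 bp away, the summit of a peak in the thresholded list of the whole series, called the series list. The sequences around some of these summits are shown here, as the summit with 50 bases on either side, read 5′ to 3′ on the strand of the named gene, from the WBcel235 genome (RefSeq). They were picked after the sequences had been seen, to show the short words described below. Capitals mark CCAAT on either strand (ATTGG where it lies on the other strand) at hsp-60 (chrIII:1619088-1619188, plus strand) and hsp-3 (chrX:6092148-6092248, minus strand), and at enpl-1 (chrIV:11119199-11119299, plus strand) and crt-1 (chrV:6100792-6100892, minus strand), which encode other chaperones of the endoplasmic reticulum.
hsp-60: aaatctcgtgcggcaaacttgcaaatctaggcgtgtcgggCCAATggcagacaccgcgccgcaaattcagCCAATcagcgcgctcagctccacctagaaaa
hsp-3: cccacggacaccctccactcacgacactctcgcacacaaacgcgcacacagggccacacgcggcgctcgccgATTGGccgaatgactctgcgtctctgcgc
enpl-1: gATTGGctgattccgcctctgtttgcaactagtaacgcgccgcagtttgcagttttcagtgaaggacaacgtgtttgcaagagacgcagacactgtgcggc
crt-1: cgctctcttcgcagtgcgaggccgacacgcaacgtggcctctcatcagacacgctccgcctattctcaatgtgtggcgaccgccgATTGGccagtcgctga

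Capitals mark the paired heat shock unit, GAANNTTC or TTCNNGAA, at hsp-1 (chrIV:17278523-17278623, plus strand), hsp-90 (chrV:14685699-14685799, plus strand), dnj-13 (chrII:11545452-11545552, plus strand), cct-8 (chrIV:1094295-1094395, minus strand) and F44E5.4 (chrII:11759415-11759515, minus strand), an Hsp70 gene without an hsp symbol. At F44E5.4 overlapping matches give 1 longer run of capitals.
hsp-1: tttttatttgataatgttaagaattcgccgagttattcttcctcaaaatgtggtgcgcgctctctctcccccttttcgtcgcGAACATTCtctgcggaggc
hsp-90: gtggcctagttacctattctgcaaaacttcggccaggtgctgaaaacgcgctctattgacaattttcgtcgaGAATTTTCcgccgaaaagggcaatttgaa
dnj-13: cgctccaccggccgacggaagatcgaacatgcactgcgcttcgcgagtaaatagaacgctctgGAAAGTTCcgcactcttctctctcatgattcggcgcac
cct-8: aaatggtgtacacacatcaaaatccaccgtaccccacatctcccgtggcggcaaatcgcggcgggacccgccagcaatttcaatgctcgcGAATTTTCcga
F44E5.4: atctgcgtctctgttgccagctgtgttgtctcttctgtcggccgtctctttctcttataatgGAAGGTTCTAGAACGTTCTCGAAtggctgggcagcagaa

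Capitals mark AATGGAGC at cct-7 (chrV:1871897-1871997, plus strand). The summit at pfd-1 (chrIV:11149745-11149845, plus strand) is shown as one with none of the words searched.
cct-7: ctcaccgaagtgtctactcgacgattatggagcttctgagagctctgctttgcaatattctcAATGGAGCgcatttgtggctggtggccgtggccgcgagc
pfd-1: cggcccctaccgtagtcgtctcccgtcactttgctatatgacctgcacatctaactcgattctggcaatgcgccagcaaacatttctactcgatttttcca

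Of the 65 chaperone genes, 18 were bound (27.7%, exact Clopper-Pearson 95% interval 17.3% to 40.2%), against 5.51% of all named protein-coding genes by the same rule (1099 of 19956). The intervals treat genes as independent draws, but each family was counted whole and genes with a shared promoter are not independent. They do not cover variation in the reads, whose number is unknown. The conservative list of the series gave 14 bound members, where its share over all named genes was 5.14%. The list of replicate 1 alone gave 14 members, with 3.11% of all named genes called. The list of replicate 2 alone also gave 14 members, with 3.44% of all named genes called. The family was chosen with earlier results of these data known, so these shares describe the genes and no test was made of them.

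The constitutive hsp genes had the highest share among the families, with 6 of 7 bound (85.7%, interval 42.1% to 99.6%). The cct genes followed with 3 of 8 (37.5%, 8.52% to 75.5%), the stress-induced hsp genes with 2 of 8 (interval 3.19% to 65.1%), the dnj genes with 6 of 29 (20.7%, 7.99% to 39.7%) and the pfd genes with 1 of 6 (16.7%, 0.421% to 64.1%). None of the 7 other small heat shock genes was bound. In the series list the interval of the constitutive hsp genes overlapped those of the cct, stress-induced hsp and pfd genes. It lay above those of the dnj and other small hsp genes. In the conservative list (4 of 7, 18.4% to 90.1%) it overlapped those of every other family. The same was so in either replicate's list (5 of 7, 29.0% to 96.3%). Differences between families were not tested, and whether such intervals overlap is not a test of them. Across the 4 lists the constitutive group had 4 to 6 bound genes, whereas the stress-induced group had 2 in the series list and in that of replicate 1 and 0 in both other lists. These groups hold only genes with an hsp symbol. The Hsp70 genes F44E5.4 and F44E5.5, bound in both replicates' lists and described below, are counted in neither group.

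**Figure D1:**
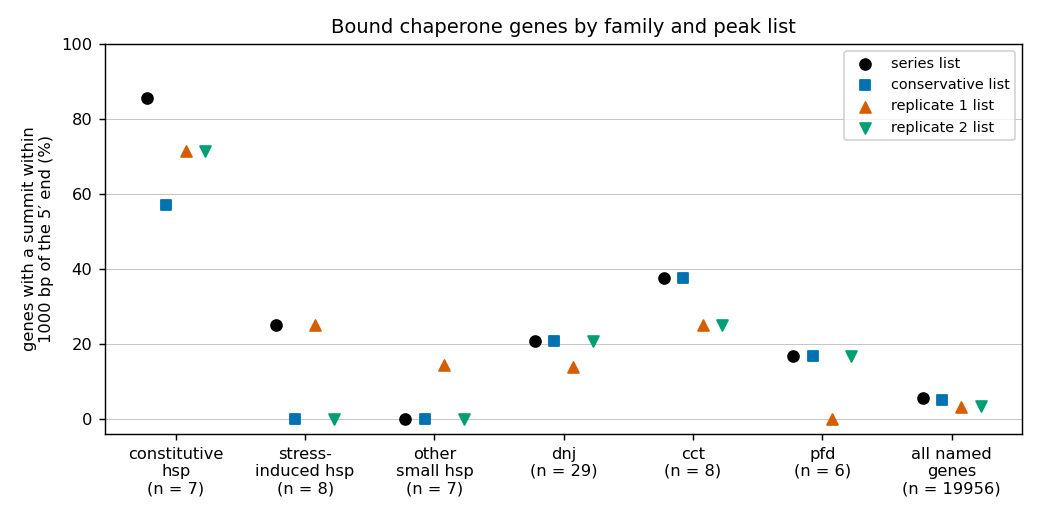
Share of genes (y axis, %) called bound at 1000 bp in each family (x axis, n genes) and in all named genes, in the series list, the conservative list and the list of each replicate. The constitutive hsp genes lie between 57.1% and 85.7% in all 4 lists, and all named genes between 3.11% and 5.51%.

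Among constitutive hsp genes the strongest peak belonged to hsp-60, the mitochondrial chaperonin. Its signal, the peak caller's own value, was 164 in replicate 1 and 105 in replicate 2, and 271 in the series list, where it ranked 93 of 1815 peaks. The summit lay 604 bp upstream of hsp-60 and at -209 bp from the divergent gene Y22D7AL.10, which RefSeq describes as a mitochondrial 10 kDa heat shock protein, the partner of the chaperonin. The mitochondrial Hsp70 gene hsp-6 had a weaker peak 406 bp upstream, with a signal of 68.4 in replicate 1, 21.1 in replicate 2 and 92.4 in the series list. Its score of 895, on the authors' scale for reproducibility with 1000 at the top and 830 the lowest in the series list, was the only one below 1000 among the bound members' peaks. It reached the thresholded list of neither replicate.

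The cytosolic Hsp70 gene hsp-1 had 2 summits. The stronger lay 386 bp upstream, with a signal of 154 in replicate 1, 91.4 in replicate 2 and 241 in the series list (rank 147). The other lay inside the gene, in a coding exon, with 114 in replicate 1, 21.3 in replicate 2 and 136 in the series list, and overlapped a thresholded peak of replicate 1 alone. The upstream peak was thus high in both replicates, and the exonic one in replicate 1.

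The cytosolic Hsp90 gene hsp-90 had its summit 831 bp downstream of the 5′ end, in its own intron. The same summit lay 264 bp upstream of the start of C47E8.4, nearer than to that of hsp-90. Its signal was 81.4 in replicate 1, 68.2 in replicate 2 and 143 in the series list. The hsp-110 gene, for the nucleotide exchange factor, had its summit 211 bp downstream in a coding exon, with 59.6 in replicate 1, 24.8 in replicate 2 and 82.1 in the series list. Replicate 2 had a different thresholded peak at hsp-110, 248 bp upstream with a signal of 40.7, so the gene was called in both replicates at different places. The mitochondrial Hsp90 gene hsp-75 was the unbound member of the group, with a strongest ranked signal of 19.5 and a score of 175.

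The Hsp70 genes of the endoplasmic reticulum, hsp-3 and hsp-4, both encode BiP. The summit at hsp-3 lay 74 bp upstream, with a signal of 91.6 in replicate 1, 93.8 in replicate 2 and 189 in the series list. At hsp-4, the paralogue known for its induction by the unfolded protein response, the strongest ranked peak lay 522 bp upstream, with 29.5 in replicate 1, 30.9 in replicate 2 and 62.3 in the pooled ranked list. Its score of 780 fell short of the lowest of the series list, 830. The values at hsp-3 were above those at hsp-4 in both replicates.

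Of the other stress-induced genes, hsp-16.48 and hsp-16.49, for small heat shock proteins, were bound through 1 shared summit. It lay 838 bp downstream of the 5′ end of hsp-16.48 and 797 bp downstream of that of hsp-16.49, in the 662 bp between their convergent 3′ ends, and not at either promoter. Its signal was 82.1 in replicate 1, 22.4 in replicate 2 and 102 in the series list, with a score of 38 in replicate 2. The peak was thus high in replicate 1 alone. The same summit lay 1108 bp upstream of hsp-16.11 and 1187 bp upstream of hsp-16.1, just outside the limit. These genes are near-identical copies, and how reads that match both were placed is not given in the sources used here, although every 50-base word within 150 bp of this summit occurred once in the genome.

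The unbound stress-induced genes had the following strongest ranked signals in the pooled list. The value was 83.5 at hsp-16.11 (score 809), 52.1 at hsp-16.2 and hsp-16.41, which share that peak, 39.3 at hsp-16.1 and 33.0 at hsp-70, an Hsp70 gene induced by heat. Of the other small heat shock genes, hsp-17 had 63.0 (score 563), hsp-43 had 48.4, hsp-25 had 35.0 and hsp-12.2 had 31.3. No pooled ranked peak had its summit within 1000 bp of hsp-12.1, hsp-12.3 or hsp-12.6. At hsp-12.3, however, replicate 1 had a signal of 54.6 with a thresholded summit 924 bp downstream, and replicate 2 had 58.4 with a score of 716.

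**Figure D2:**
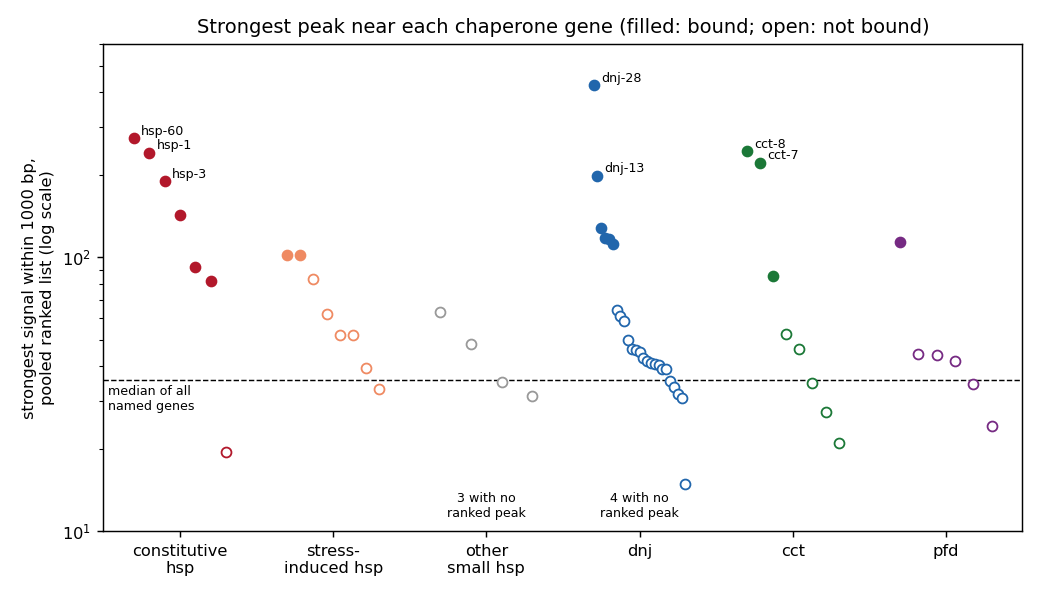
Strongest signal of the pooled ranked list within 1000 bp of the 5′ end (y axis, the caller's signal on a log scale) for each chaperone gene by family (x axis). Filled points are bound genes and open points are not, and the dashed line is the median of all named genes, 35.7. The highest is dnj-28 at 424, and 7 members have no ranked peak.

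The highest signal of any chaperone gene was at dnj-28, a J-domain gene. The summit lay 114 bp upstream, with a signal of 198 in replicate 1, 251 in replicate 2 and 424 in the series list, where it ranked 19 of 1815. The class B J-domain gene dnj-13 came next in this family, with 130 in replicate 1, 68.2 in replicate 2 and 198 in the series list at a summit 199 bp upstream, inside an intron of dhgd-1. Both peaks were in the thresholded lists of both replicates.

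The class A genes dnj-19 and dnj-12 were also bound in both replicates. The dnj-19 peak, 393 bp upstream of it and 3 bp upstream of the nuclear receptor gene nhr-47, had 84.6 in replicate 1, 42.4 in replicate 2 and 128 in the series list. The dnj-12 peak, 108 bp upstream, had 70.1 in replicate 1, 49.9 in replicate 2 and 117 in the series list. The remaining pair was thresholded in replicate 2 alone.

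At dnj-14, for the cysteine string protein of synaptic vesicles, the summit lay 359 bp upstream, with 58.6 in replicate 1, 55.6 in replicate 2 and 117 in the series list. At dnj-29, a relative of yeast Sec63 of the endoplasmic reticulum translocon, it lay 154 bp upstream, with 67.4 in replicate 1, 46.5 in replicate 2 and 112 in the series list. Of the 23 unbound dnj genes, those of highest ranked signal in the pooled list were dnj-16 with 64.2, dnj-20 with 61.0 and dnj-25, the auxilin gene, with 58.8. No dnj gene thus had a value between 112 and 64.2 on this scale. Bound genes are called from thresholded peaks, so their higher signal is in part built into the call. Such a gap was not seen among all members, since unbound hsp-16.11 had 83.5 and bound hsp-110 had 82.1.

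Of the 8 genes for subunits of TRiC, cct-8, cct-7 and cct-1 were bound. The cct-8 summit, 425 bp upstream, had 146 in replicate 1, 99.1 in replicate 2 and 243 in the series list. The cct-7 summit, 299 bp upstream, had 143 in replicate 1, 73.4 in replicate 2 and 221 in the series list. The cct-1 summit, 260 bp upstream, had 43.4 in replicate 1, 45.2 in replicate 2 and 85.7 in the series list, and was in the thresholded list of neither replicate. The subunits of this 1 complex thus differed in signal, and of the unbound ones cct-6 had 52.4, cct-3 46.3 and cct-4 34.9 in the pooled ranked list.

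Of the prefoldin subunit genes, pfd-1 was bound, with a summit 318 bp upstream and a signal of 44.8 in replicate 1, 74.9 in replicate 2 and 113 in the series list. It was thresholded in replicate 2 alone. The next subunits were pfd-3 with 44.5, pfd-6 with 44.0 and pfd-4 with 42.0 in the pooled ranked list, the last from a peak shared with dnj-2. These values lie between the medians of all named genes and of all chaperone genes, which are given below.

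**Figure D3:**
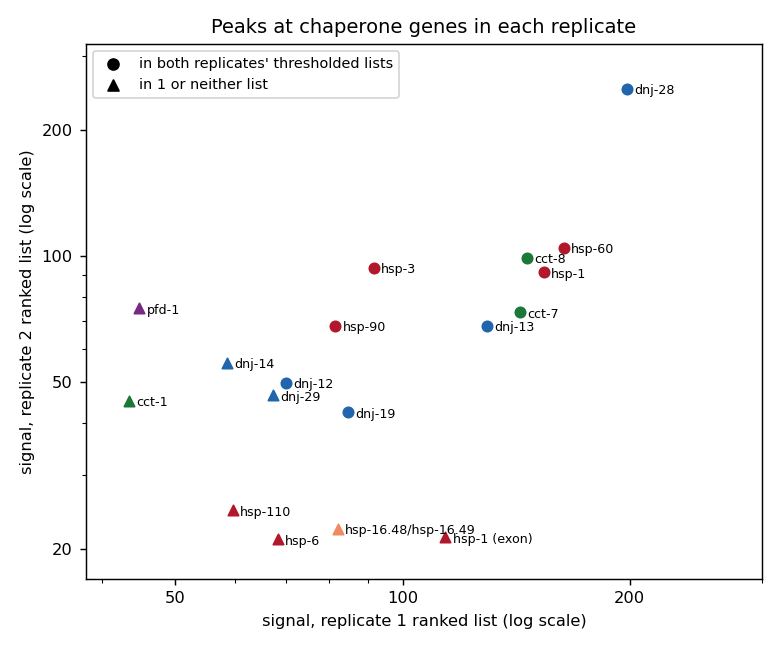
Signal of each of the 18 series peaks at bound chaperone genes in the ranked list of replicate 1 (x axis) and replicate 2 (y axis), both on log scales and coloured by family. Circles were in both replicates' thresholded lists (10 peaks) and triangles in 1 or neither. The peaks at hsp-6, hsp-16.48/hsp-16.49, hsp-110 and the exon of hsp-1 lie between 21.1 and 24.8 in replicate 2.

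The 18 bound genes had 17 different strongest summits. Of these, 10 were overlapped by thresholded peaks of both replicates, 2 by replicate 1 alone, 3 by replicate 2 alone and 2 by neither. Counting all 18 member summits, the share overlapped by both replicates was 55.6%, against 37.1% of the 894 series summits near any protein-coding 5′ end. Signal was higher in replicate 1 at 13 of the 17, but the 2 lists' normalization is not stated, so the replicates are better compared by rank. By rank percentile, replicate 1 was also the higher at 13 of the 17. The percentile divides by the length of the ranked list, 69586 peaks in replicate 1 and 48662 in replicate 2. At equal rank the longer list thus gives the better percentile. At hsp-90 (rank 572 in replicate 1, 547 in replicate 2) and dnj-14 (1103 and 775) the rank itself was better in replicate 2. Of the 17, 14 lay in the upper 5% of the ranked lists of both replicates. High ranks follow in part from choosing thresholded peaks, and the share over all series peaks was not computed.

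Over every chaperone gene with a ranked peak in the pooled list, the median of the strongest signal was 47.3 (58 genes), against 35.7 over all named genes (13566 genes). Among genes not bound the median was 41.6 for members (40 genes) and 34.1 for named genes (12467 genes). Among bound genes it was 123 for members and 109 for named genes. By family the median was 143 for constitutive hsp, 57.2 for stress-induced hsp, 49.3 for cct, 45.2 for dnj, 42.98 for pfd and 41.7 for other small hsp. Each median leaves out genes with no ranked peak, which were 7 of 65 members and 6390 of 19956 named genes.

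The strongest summit was upstream of the 5′ end at 14 of the 18 bound genes (77.8%), against 71.6% of near summits in the series, and downstream at hsp-90, hsp-110, hsp-16.48 and hsp-16.49. It lay within 500 bp at 14 genes. The median position was -229.5 bp for bound members and -166.5 bp for near summits. Member positions were counted per gene and from the chaperone's own 5′ end, although another start was nearer at the genes listed below. Near summits were counted per summit, with 640 of 894 upstream and 254 downstream. The medians and the upstream shares are therefore not like for like, and they cannot show whether member summits lie farther upstream. No chaperone summit lay within 200 bp of a small RNA gene, against 19.8% of near summits, and the median GC content around the summit was 50.5% in both sets.

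**Figure D4:**
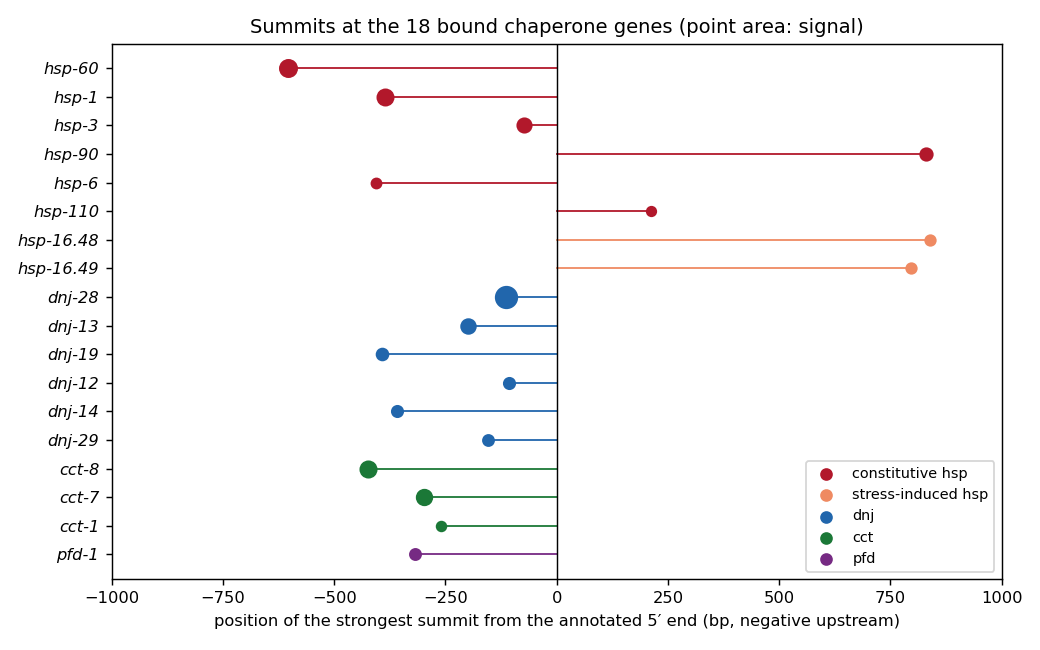
Position of the strongest summit from the annotated 5′ end (x axis, bp, negative upstream) at each of the 18 bound chaperone genes, grouped by family, with point area proportional to signal. The dnj, cct and pfd summits all lie upstream, from -108 to -425 bp, and the 4 downstream summits belong to hsp genes.

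Bound chaperone genes often shared their summit with another gene. At 16 of 18 (88.9%) the strongest summit was also within 1000 bp of another protein-coding 5′ end, against 560 of 1099 bound named genes (51.0%). The nearest neighbour upstream that did not overlap the 5′ end was transcribed away from the gene at 16 of 18 bound members (88.9%). This was against 684 of 1099 bound named genes (62.2%). It was so at 24 of the 47 unbound members (51.1%), and at 61.5% of all members against 45.4% of all named genes. A divergent neighbour does not mean a shared peak. The summit at hsp-3 had no other start within 1000 bp, and that of hsp-16.48 and hsp-16.49 lies between their 3′ ends. At dnj-13 the summit lies inside dhgd-1, which was not counted as the neighbour. To which of the paired genes a shared peak relates cannot be told apart here. Examples are mig-5 with cct-1, glit-1 with dnj-14 and mtx-1 with dnj-12. The other start was nearer to the summit than the chaperone's own at hsp-60, hsp-90, hsp-6, cct-8, cct-7, cct-1, dnj-14, dnj-19 and pfd-1. These comparisons were chosen after the peaks had been seen and were not tested.

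In all, 8 motif entries were searched on both strands, within 50 bp of summits and in promoters of 300 bp (250 bp before to 50 bp after each 5′ end). Of the 5 that describe known elements, the paired heat shock unit, GAANNTTC or TTCNNGAA, was at 4 of 18 member summits (22.2%; cct-8, hsp-1, dnj-13 and hsp-90), against 6.49% of near summits. It was in 49.2% of member promoters and 32.5% of all promoters. The longer element, 3 alternating GAA and TTC units spaced by NN, was at 0 of 18 member summits and 0.559% of near summits, but in 11 of 65 member promoters (16.9%) against 1.96% of all. Among the 7 summits of the other chaperone machinery described below, it was at 2 (28.6%), those of F44E5.4 with F44E5.5 and of ahsa-1. It includes matches of the paired unit.

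These promoters with the longer element were those of 7 of the 8 stress-induced genes, all but hsp-4, and of hsp-1, hsp-90, hsp-110 and dnj-12. The hsp-16 genes lie in divergent pairs with gaps of 220 to 348 bp. Their promoter windows therefore overlap, the same match can count for both genes of a pair, and these counts are not independent. The longer element was in the promoters of 6 of 18 bound members (33.3%) and of 5 of 47 unbound members (10.6%), a difference that was not tested. Bound hsp-16.48 and hsp-16.49 are paired with unbound hsp-16.1 and hsp-16.11, so the same match can count on both sides. For the paired unit the shares were 55.6% of bound and 46.8% of unbound members. All 5 unbound genes with the longer element were stress-induced. Of the 6 bound members with it, dnj-12 alone had a summit inside the promoter window, 108 bp upstream of the 5′ end. The summits at hsp-1, hsp-90, hsp-110, hsp-16.48 and hsp-16.49 lay outside it. The unfolded protein response word TGACGTGG was at 0 of 18 member summits and 0.336% of near summits, and in 0 member promoters against 0.887% of all. The homeodomain words TAATTA or TAATGA were at 0 of 18 member summits and 4.81% of near summits, and in 36.9% of member promoters against 32.4% of all. GCGCGC was at 2 of 18 member summits (hsp-60 and hsp-1, 11.1%) and 11.0% of near summits, and in 1 member promoter (hsp-3, 1.54%) against 3.58% of all.

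The other 3 words were picked by eye from the summit sequences, so their counts at those summits describe the choice. CCAAT was at 5 of 18 member summits (27.8%; hsp-60, hsp-3, dnj-19, dnj-29 and hsp-6), against 16.6% of near summits, and in 43.1% of member promoters against 45.5% of all. GACGCAGA was at 1 member summit, that of hsp-3 (5.56%), against 4.92% of near summits. It was in 8 of 65 member promoters against 3.00% of all. Of these 8, 6 were of hsp-16 genes, whose promoter windows overlap in pairs. AATGGAGC was at 2 member summits (dnj-28 and cct-7, 11.1%), against 1.57% of near summits, and in 3.08% of member promoters against 1.44% of all. A match is a description of the letters and shows no binding by a factor.

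Chaperone machinery outside the 4 symbols was described with a list of 23 genes, chosen with earlier results known, of which 8 were bound (34.8%), against 5.51% of all named genes. The strongest was the Hsp70 gene pair F44E5.4 and F44E5.5, transcribed divergently from 1 peak, with a signal of 213 in replicate 1, 138 in replicate 2 and 348 in the series list (rank 37). The Hsp70 exchange factor gene bag-1 followed with 238 in the series list, then xbp-1, a transcription factor of the unfolded protein response, with 148, and enpl-1, the Hsp90 of the endoplasmic reticulum, with 137. The genes unc-23, a BAG-domain co-chaperone, crt-1, calreticulin, and ahsa-1, the activator of Hsp90 ATPase, had about 105 each. The peaks at 6 of the 8 genes were in both replicates' lists. The regulator gene hsf-1 was not bound and had a strongest ranked signal of 44.0.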

How the data were processed

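Peaks were analysed as the authors deposited them, in 7 of 8 lists on ce11: the series list (1815 peaks), the conservative list (1732), the thresholded lists of replicate 1 (1014) and replicate 2 (1119), and the pooled and per-replicate ranked lists. The remaining list was not used here. Sonication sheared the chromatin, per the labels. No aligner, peak caller, control handling or read depth is named: each was not given in the sources used here. The score is the authors' deposited measure of reproducibility, at most 1000. The signal is the authors' deposited peak value, whose normalization is not stated, so it was ranked within a list only.

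A summit is the deposited peak start plus offset. Distances were taken to Ensembl release 115 5′ ends on WBcel235, the assembly of ce11. Ensembl gives 2 genes the symbol hsp-16.48 and 2 the symbol hsp-16.1; RefSeq symbols hsp-16.49 and hsp-16.11 were used for the others. Python 3.11.15, numpy 2.4.6, scipy 1.17.1 and pandas 2.3.3 were used. The calling rule was tested on simulated data with known answers.

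The members and lists were chosen with earlier results of these data known. Named genes are every bound member, every unbound hsp gene, the 3 unbound dnj, cct and pfd genes of highest pooled ranked signal, members up to 1500 bp from a summit, and every bound gene of the other machinery; the rest were named after their values were seen. Printed sequences, 3 motif words, the neighbour comparisons and 1 alternative setting were chosen after seeing the data. No test was made, as there was 1 group.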

Additional observations from a re-analysis of the deposited data

How the results depend on the processing

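The counts of bound genes were recomputed with limits of 500 bp and 2000 bp, the conservative list, the upper 50% of peaks by signal, peak intervals in place of summits, transcript starts, summits away from small RNA genes, and each replicate's list alone. Of the alternative counts, 60 stayed within 1.5 times the value given and 8 did not. The 60 include counts without summits at small RNA genes, which could not change because no member summit lies at one. They also include the constitutive hsp genes (6 of 7 as given), which were 4 within 500 bp, in the conservative list and in the upper 50% by signal. Among the 8, the bound stress-induced hsp genes (2 of 8 as given) were 0 within 500 bp and 4 within 2000 bp. These genes were 0 in the conservative list, 0 in the upper 50% by signal, and 0 to 2 with either replicate left out. They were 4 when hsp-6 and hsp-60, known for induction by mitochondrial stress, were moved to that group. With either replicate left out, the other small hsp genes ranged from 0 to 1 and the pfd genes from 0 to 1. The cause of these changes was not tested.

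All 65 genes together had 14 bound within 500 bp, where 3.74% of all named genes were bound, and 20 within 2000 bp, where 8.15% were. Leaving out summits in repeated sequence, an alternative added after seeing the data, removed none at a limit of 50% unique words. Every 50-base word was unique around 16 of the 18 summits. The lowest share, 79.8%, was at dnj-28, the chaperone gene of highest signal.

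No paired analysis was possible because there was 1 group. The families hold 6 to 29 genes, so 1 or 2 genes decide most shares. The number of reads is unknown, so the depth behind an unbound call cannot be given.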
